A study of Mus musculus with 32 samples.

Results

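Frzb, Sfrp1, Sfrp2, Sfrp5, Dkk1, Dkk2, Dkk3 and Wif1 encode proteins that cells secrete to hold back Wnt signalling, and their RNA was followed through 32 sequencing libraries of primary mouse chondrocytes. These 8 genes, of 41388 counted, were chosen by name as a family and not by their values, though earlier results of these data were known. Each symbol was matched to its Ensembl identifier in the count files. The libraries came from sternal chondrocytes of newborn C57BL/6 pups, cultured without passaging, with 2 libraries for each of 16 groups. Wild-type cells received no virus and were left untreated or were given for 24 h IL-1β (10 ng/mL), a pro-inflammatory cytokine, FX11 (40 µM), a small molecule that inhibits lactate dehydrogenase A, or both agents. Cells of 3 floxed lines (Nfkbiz f/f, Ldha f/f or Nampt f/f) were infected for 24 h with adenovirus carrying eGFP (GFP) or Cre and eGFP (Cre), and were then kept for 24 h without or with IL-1β. Cre removes the floxed stretch of Ldha (the lactate dehydrogenase A gene), of Nampt (an enzyme of NAD salvage) or of Nfkbiz (the gene of IκB-ζ, a nuclear regulator of NF-κB targets).

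In the canonical Wnt pathway a secreted Wnt binds a Frizzled receptor and an LRP5 or LRP6 co-receptor, β-catenin is stabilized, and TCF and LEF factors switch on genes such as Axin2. The secreted frizzled-related proteins, which include FRZB, and WIF1 bind Wnts outside the cell, whereas DKK1 and DKK2 bind the LRP co-receptors and DKK3 is a divergent member of its family that does not act on them in the same way. In cartilage too much or too little β-catenin signalling disturbs chondrocytes, and FRZB was isolated from cartilage.

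No wild-type cells received Cre, so the deletion and the Cre virus itself cannot be told apart within a line. The labels fall into 2 styles of title, used here as library sets. Set 1 holds 12 libraries and set 2 holds 20, each wild-type, Ldha f/f or Nampt f/f group has 1 library in each set, and all Nfkbiz f/f libraries are in set 2. Nothing in the labels says that the 2 libraries of a group came from separate cultures or animals, so p-values measure the spread between these libraries, which may be technical. Total counts ran from 15830658 to 39959888 per library with a median of 25363482. The deleted genes fell with Cre in their own line. Mean Ldha went from 906 to 115 normalized CPM (counts scaled to the library's total and its TMM normalization factor), Nampt from 57.4 to 6.78 CPM and Nfkbiz from 16.5 to 8.87 CPM without IL-1β, and with IL-1β Nfkbiz went from 230 to 30.5 CPM. The summed level of 16 chondrocyte markers was between 79940 and 103200 CPM in the 6 floxed GFP libraries without IL-1β. Over the floxed libraries 6 macrophage markers summed to between 13.6 and 55.9 CPM and 8 skeletal muscle markers to between 10.8 and 123 CPM, and in wild type to between 91.4 and 302 CPM and between 56.9 and 478 CPM. Over all 32 libraries 5 osteoblast markers summed to between 7.74 and 34.4 CPM and 6 endothelial markers to between 3.00 and 26.9 CPM. Of these 4 lists Dmp1 was at 0 counts in 5 libraries, Emcn in 4, Tie1 and Myod1 in 3 each and Cdh5 and Myog in 1 each, and the other genes were at 0 in none.

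In wild type, 2 libraries of set 2 ran against their labels. Mmp3, a matrix metalloproteinase that IL-1β induces, was at 9293 CPM in the wild-type library labelled IL-1β of set 1 but at 0.790 CPM in the one of set 2, while the set 2 library labelled FX11 alone was at 2033 CPM and that of set 1 at 1.21 CPM. The wild-type fits are therefore also given without the library concerned, and the IL-1β response was measured in the floxed lines.

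The promoters of Sfrp5, the member with the largest IL-1β change, and of Sfrp2, whose IL-1β change in GFP controls did not pass the test, are shown for comparison. Both stretches are the 250 bases upstream of the RefSeq gene start (GRCm38.p6), written 5′ to 3′ on the gene's own strand, with Sfrp5 at chr19:42202253-42202502 (minus strand) and Sfrp2 at chr3:83766071-83766320 (plus strand). No letters are in capitals because none of the 4 motifs searched lies within them.
Sfrp5: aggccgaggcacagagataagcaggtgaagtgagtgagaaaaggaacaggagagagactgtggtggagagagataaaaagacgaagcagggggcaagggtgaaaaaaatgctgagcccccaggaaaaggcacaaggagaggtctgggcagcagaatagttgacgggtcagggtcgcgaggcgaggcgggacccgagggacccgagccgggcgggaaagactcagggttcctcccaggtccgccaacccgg
Sfrp2: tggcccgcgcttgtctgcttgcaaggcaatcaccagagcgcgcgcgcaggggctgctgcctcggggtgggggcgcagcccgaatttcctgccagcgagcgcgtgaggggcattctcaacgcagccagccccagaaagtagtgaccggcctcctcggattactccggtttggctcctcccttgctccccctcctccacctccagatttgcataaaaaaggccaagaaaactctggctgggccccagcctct

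The search used windows of 300 bases, 250 before and 50 after the gene start, and covered the 6 members that the promoter table holds: Frzb, Sfrp2, Sfrp5, Dkk1, Dkk2 and Wif1. Sfrp1 and Dkk3 were not among them. GC content was 61.3% in the Sfrp5 window and 66.0% in that of Sfrp2. A match to the κB motif, searched by name on both strands and found in 8.46% of 32851 promoter windows, occurred in Sfrp2 alone of the 6, on the minus strand 23 bases past the start and so outside the printed stretch. TCF/LEF matches (CTTTGAT, both strands, 3.73% of windows) and AP-1 matches (TGANTCA, both strands, 7.81% of windows) occurred in none of the 6. A TATA match (TATAAA, gene strand, 8.32% of windows) occurred in Dkk1 at base -54 and in Dkk2 at base -32. A match is a description of letters and not of a bound site.

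The members differed widely in level. Values here are CPM normalized with TMM factors, and to compare genes they were divided by the gene's length in kilobases. The mean over 32 libraries was 16.8 CPM per kb for Frzb, 7.36 for Sfrp2, 4.13 for Dkk3, 3.46 for Sfrp1, 2.58 for Wif1 and 1.55 for Sfrp5. The spread over libraries exceeded the step between neighbours in this order, with for example Sfrp1 running from 1.45 to 7.28 CPM per kb and Dkk3 from 1.09 to 8.69. Dkk1 and Dkk2 lay far below, at 0.0326 and 0.0769 CPM per kb. Dkk1 had 70 counts over all 32 libraries and never more than 9 in a library, and Dkk2 had 264 counts and reached at most 0.805 CPM. Neither passed the filter of more than 1 CPM, so 6 of the 8 members were tested, and a count of 3, taken as the floor, corresponds to 0.0751 CPM in the deepest library and 0.190 CPM in the shallowest.

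The 8 genes lie apart in the genome (GRCm38, gene models of GENCODE M21). Frzb (ENSMUSG00000027004) is at chr2:80411970-80447625 on the minus strand with 6 exon blocks, and Sfrp1 (ENSMUSG00000031548) is at chr8:23411502-23449632 on the plus strand with 3. Sfrp2 (ENSMUSG00000027996) is at chr3:83766321-83774316 on the plus strand with 5 exon blocks. Its span overlaps that of the antisense gene Gm26771. Whether counted exon bases are shared was not examined and use of strand in the counting is not stated. What the overlap does to the Sfrp2 counts is therefore not known. Sfrp5 (ENSMUSG00000018822) is at chr19:42197971-42202252 on the minus strand with 3 exon blocks, and Wif1 (ENSMUSG00000020218) is at chr10:121033960-121100650 on the plus strand with 10. Dkk1 (ENSMUSG00000024868) is at chr19:30545863-30549665 on the minus strand, Dkk2 (ENSMUSG00000028031) at chr3:132085292-132180293 on the plus strand and Dkk3 (ENSMUSG00000030772) at chr7:112116019-112159057 on the minus strand.

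The lines did not start from the same mixture of antagonists. Frzb made up 35.1% to 38.0% of the summed CPM per kb of the 8 members in Ldha f/f and Nampt f/f GFP libraries without IL-1β, and 62.2% to 65.0% in those of Nfkbiz f/f. Sfrp2 was at 26.4 and 20.8 CPM in Ldha f/f, 14.3 and 13.9 CPM in Nampt f/f and 4.12 and 3.48 CPM in Nfkbiz f/f. Dkk3 likewise was at 25.0 to 29.2 CPM in the first 2 lines and at 6.15 and 6.00 CPM in Nfkbiz f/f. The 12 fibroblast and perichondrium markers, which include Col1a1 and Col3a1, summed to 6209 to 7103 CPM in these libraries of Ldha f/f and Nampt f/f and to at most 2064 CPM in any Nfkbiz f/f library. Their part in the levels of Sfrp2 and Dkk3 was not tested, and in bulk RNA fewer cells of a type and less RNA per cell cannot be told apart.

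**Figure D1:**
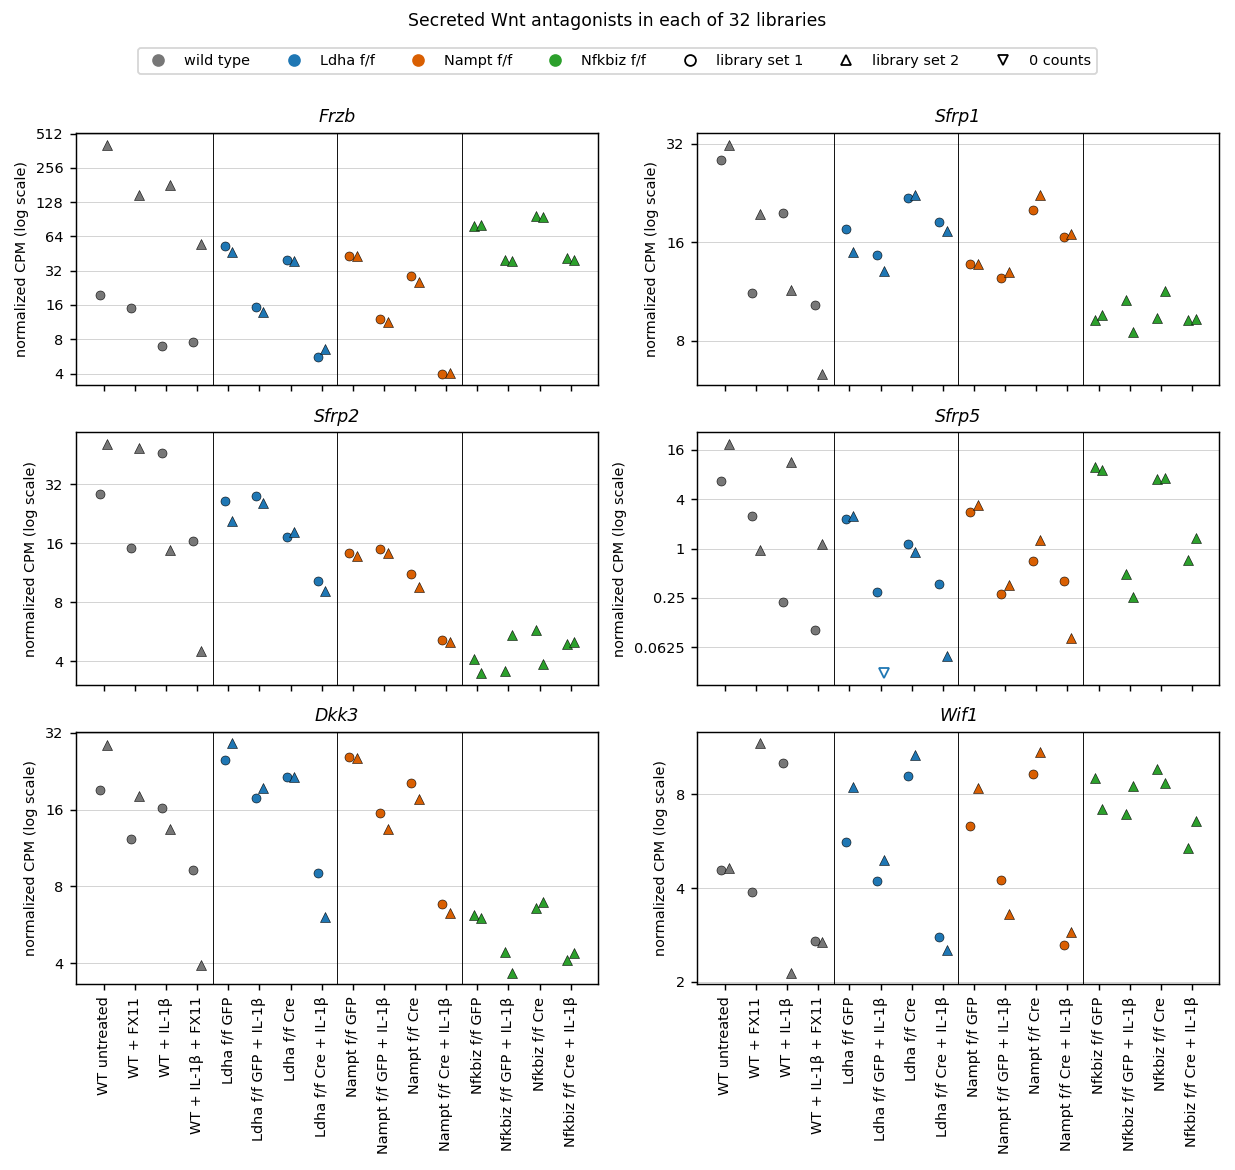
Normalized CPM (log axis) of the 6 members with a mean over 1 CPM in each library, by group; circles are set 1, upward triangles set 2, and the downward triangle a library with 0 counts. Frzb and Sfrp5 drop with IL-1β in the GFP groups of every floxed line, while Sfrp1 stays between 8.48 and 17.6 CPM in the GFP libraries.

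To ask how the antagonists respond to the cytokine, IL-1β was compared with no IL-1β in the 6 against 6 GFP libraries of the 3 floxed lines, with line and library set as covariates. Of the 6 members tested 4 fell, Frzb, Sfrp5, Dkk3 and Wif1, none rose, and Sfrp1 and Sfrp2 did not pass. Of the 4, Sfrp5 met the filter only through its libraries without IL-1β. Among all 14283 genes tested 56.2% were called, 28.3% lower and 28% higher, the background against which 4 lower of 6 is to be read. The median log2 fold change of the 6 was -0.55 against -0.01 over all genes.

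Sfrp5 had the largest fall, but it was over the filter's 1 CPM only in the libraries without IL-1β. It thus entered this test through the arm where it was high. Its lowest, median and highest values were 2.28, 3.07 and 9.70 CPM without IL-1β and 0, 0.286 and 0.496 CPM with it. All 6 libraries with IL-1β lay below all 6 without, and none of them held more than 11 Sfrp5 counts. The log2 fold change was -3.94 ± 0.30 (SE; 15.4-fold lower; adjusted p = 8.42e-09, edgeR's quasi-likelihood test with Benjamini-Hochberg adjustment, as for all adjusted p-values here). By line it was -4.63 ± 0.34 for Nfkbiz f/f (adjusted p = 7.19e-07), -3.71 ± 0.79 for Ldha f/f (adjusted p = 0.00609) and -3.21 ± 0.58 for Nampt f/f (adjusted p = 0.00154). Within the lines 26.8%, 27.9% and 35% of all genes were called, and 2, 3 and 4 of the 6 members.

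Frzb, the most abundant member, ran from 43.0 through a median of 50.1 to 80.5 CPM without IL-1β and from 11.3 through 14.7 to 39.4 CPM with it. The arms did not overlap, although the upper values of both came from Nfkbiz f/f. The log2 fold change was -1.50 ± 0.11 (2.82-fold lower; adjusted p = 2.8e-09). In Ldha f/f, Frzb went from 53.1 and 47.0 CPM to 15.4 and 14.0 CPM (log2 fold change -1.74 ± 0.11, adjusted p = 1.84e-06). In Nampt f/f it went from 43.0 and 43.5 CPM to 12.0 and 11.3 CPM (-1.84 ± 0.10, adjusted p = 1.45e-07), where 17.3% of all genes were called lower and 17.7% higher. The Nfkbiz f/f libraries went from 78.5 and 80.5 CPM to 39.4 and 38.7 CPM (-1.01 ± 0.09, adjusted p = 3.88e-06), a smaller fall than in either other line. This difference itself passed the test, with -0.74 ± 0.11 for Ldha f/f minus Nfkbiz f/f (adjusted p = 0.000207; 4.3% of all genes called) and -0.83 ± 0.11 for Nampt f/f minus Nfkbiz f/f (adjusted p = 7.65e-05; 6.7% called). Frzb was the only member called in these 2 differences, and none was called for Ldha f/f minus Nampt f/f (0 by unadjusted p under 0.05, DESeq2 or voomWithQualityWeights), where 0.113% of genes were.

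Dkk3 and Wif1 fell less. Dkk3 had a median of 25.2 CPM without IL-1β (6.00 to 29.2 CPM) and of 14.5 CPM with it (3.68 to 19.4 CPM), and its log2 fold change was -0.62 ± 0.08 (adjusted p = 3.17e-06). Within each line both libraries with IL-1β were below both without, and the call passed in Ldha f/f (-0.52 ± 0.15, adjusted p = 0.0301) and Nampt f/f (-0.76 ± 0.11, adjusted p = 0.000399) but not in Nfkbiz f/f (-0.57 ± 0.20, adjusted p = 0.0515). There it passed with voomWithQualityWeights (adjusted p = 0.0216), with the 4 libraries alone (0.0417) and without either Cre IL-1β library (0.043 and 0.0436). The Ldha f/f call was lost without GFP IL-1β replicate 1 (adjusted p = 0.168), GFP replicate 2 (0.149) or GFP IL-1β replicate 2 (0.0575).

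Wif1 had a median of 7.77 CPM without IL-1β (5.62 to 8.99 CPM) and 4.57 CPM with it (3.31 to 8.52 CPM), and its arms overlapped. Its log2 fold change was -0.47 ± 0.15 (adjusted p = 0.0109). The call was lost without Ldha f/f (-0.43, adjusted p = 0.0934), without Nampt f/f (-0.31, adjusted p = 0.121), in set 2 alone (-0.47, adjusted p = 0.0641) and with wild type added (-0.30, adjusted p = 0.416). By line it was -0.88 ± 0.21 in Nampt f/f (adjusted p = 0.00815), -0.60 for Ldha f/f (adjusted p = 0.0779, or 0.0186 with the replicate number as a block and 0.0187 without GFP replicate 1) and -0.05 ± 0.19 in Nfkbiz f/f (adjusted p = 0.892). The Nampt f/f call in turn was lost without GFP replicate 2 (adjusted p = 0.0607) or GFP IL-1β replicate 2 (0.0582).

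Sfrp1 ran from 9.25 to 17.6 CPM without IL-1β (median 13.7 CPM) and from 8.48 to 14.7 CPM with it (median 12.7 CPM), a log2 fold change of -0.08 ± 0.08 (95% interval -0.24 to 0.07, adjusted p = 0.404). Sfrp2 ran from 3.48 to 26.4 CPM (median 14.1 CPM) and from 3.57 to 27.9 CPM (median 14.6 CPM), a log2 fold change of 0.19 ± 0.09 (95% interval 0.02 to 0.36, adjusted p = 0.0748). With limma's voomWithQualityWeights, the method the study's own methods name, Sfrp2 passed as higher (0.18, adjusted p = 0.0359).

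Chondrocyte markers fell in the same libraries as Frzb and Sfrp5. Of the 16 chondrocyte markers 15 fell with IL-1β in the GFP libraries, and their summed level went from 79940 to 103200 CPM down to 28550 to 36530 CPM. Over all 32 libraries the log2 CPM of Sfrp5 had a Pearson correlation of 0.88 with the log2 of that sum, Frzb of 0.78 and Wif1 of 0.48. These are descriptions over libraries that share treatments and sets, and the part of the marker change in the results for these members was not tested.

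**Figure D2:**
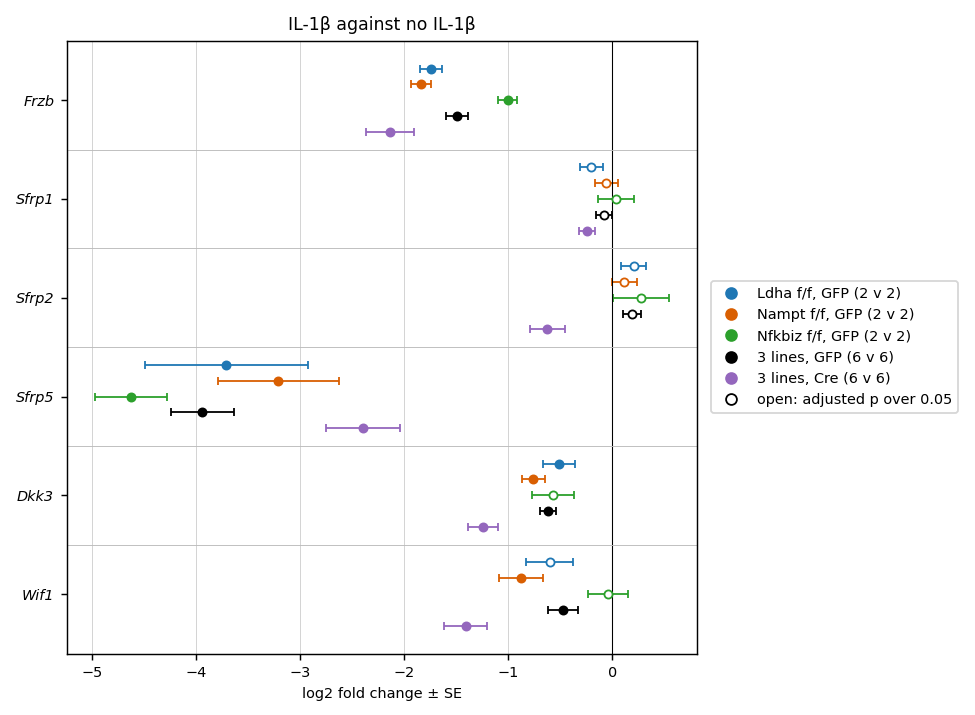
Log2 fold change with IL-1β against without, with its SE, for each of the 6 members tested, in GFP controls of each line, in GFP controls pooled (black) and in Cre libraries pooled (purple); open symbols have an adjusted p over 0.05. Sfrp5 lies at -3.94 and Frzb at -1.50 in the pooled GFP controls, and Sfrp1 (-0.08) and Sfrp2 (0.19) are open there.

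The response left after Cre was measured in the same way. In the 6 against 6 Cre libraries of the 3 lines all 6 members tested were called lower with IL-1β, where 47.5% of 14453 genes were called and 23.6% were called lower. The fit takes a single IL-1β effect for all lines, and the lines were not alike. In Nfkbiz f/f after Cre mean Sfrp2 was 4.83 CPM without IL-1β and 4.97 CPM with it. Mean Frzb went from 39.2 to 6.08 CPM in Ldha f/f, from 27.3 to 4.03 CPM in Nampt f/f and from 95.3 to 40.7 CPM in Nfkbiz f/f. Frzb went from 25.7 to 96.4 CPM (median 39.2 CPM) to 3.98 to 41.6 CPM (median 6.08 CPM), a log2 fold change of -2.14 ± 0.23 (adjusted p = 1.93e-05). Wif1 went from 8.68 to 10.9 CPM (median 9.45 CPM) to 2.53 to 6.58 CPM (median 2.84 CPM), a log2 fold change of -1.41 ± 0.20 (adjusted p = 0.000183). The Wif1 arms no longer overlapped. Dkk3 fell by 1.24 ± 0.15 on the log2 scale (adjusted p = 3.99e-05), from a median of 18.9 CPM to 6.20 CPM. Sfrp5 changed by -2.40 ± 0.35 (adjusted p = 0.000206), from a median of 1.20 CPM to 0.384 CPM, and with IL-1β it stayed at 31 counts or fewer. The remaining 2 calls were smaller, -0.24 ± 0.07 for Sfrp1 (adjusted p = 0.0185) and -0.62 ± 0.17 for Sfrp2 (adjusted p = 0.0107). Both were lost in set 2 alone (Sfrp1 -0.24, adjusted p = 0.176; Sfrp2 -0.45, adjusted p = 0.194), without Ldha f/f (adjusted p = 0.186 and 0.184) and without Nampt f/f (adjusted p = 0.221 and 0.189). For Sfrp1 the call was also lost in set 1 alone, an alternative chosen after seeing the data (-0.25, adjusted p = 0.0521).

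The effect of Cre itself was measured by comparing Cre with GFP within each line. Without IL-1β, no member was called in Ldha f/f, where 5.52% of 15880 genes were (3.43% higher, 2.09% lower). By edgeR 4 of the 6 had an unadjusted p under 0.05, and DESeq2 called 0 and voomWithQualityWeights 1. Frzb was at 53.1 and 47.0 CPM with GFP and at 39.6 and 38.7 CPM with Cre (-0.36 ± 0.10, adjusted p = 0.0731). Sfrp2 was at 26.4 and 20.8 CPM and at 17.3 and 18.4 CPM (-0.41 ± 0.12, adjusted p = 0.0879). Sfrp1 was at 17.6 and 14.9 CPM and at 21.8 and 22.3 CPM (0.43 ± 0.11, adjusted p = 0.0511). For these 3 genes the GFP and Cre values did not overlap, and all 3 passed with the replicate number as a block (adjusted p = 0.0107 for Frzb, 0.00848 for Sfrp1 and 0.0138 for Sfrp2). Sfrp2 also passed without GFP replicate 2 (adjusted p = 0.033).

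The same 3 genes, with Sfrp5 and Dkk3, passed in Nampt f/f, where 14.4% of 16136 genes were called, 6.07% lower and 8.3% higher. Frzb was at 43.0 and 43.5 CPM with GFP and at 28.9 and 25.7 CPM with Cre (-0.66 ± 0.09, adjusted p = 0.000626). Sfrp1 rose from 13.7 CPM in both GFP libraries to 20.1 and 22.3 CPM (0.63 ± 0.11, adjusted p = 0.00265), the one member that rose. Smaller falls passed for Sfrp2, from 14.3 and 13.9 to 11.2 and 9.58 CPM (-0.44 ± 0.12, adjusted p = 0.0317), and for Dkk3, from 25.7 and 25.4 to 20.4 and 17.5 CPM (-0.43 ± 0.11, adjusted p = 0.0235). Sfrp5 went from 2.77 and 3.37 CPM to 0.714 and 1.28 CPM (-1.64 ± 0.48, adjusted p = 0.0442). The Sfrp2 call was lost with DESeq2 (adjusted p = 0.0756), with no filter (0.0725) in a fit of the 4 libraries alone (0.0675), without GFP replicate 1 (0.141) or 2 (0.106), Cre replicate 1 (0.0551) or 2 (0.204), or GFP IL-1β replicate 1 (0.0517). The Sfrp5 call was lost without either library of the GFP (adjusted p = 0.11 and 0.162), Cre (0.242 and 0.0704) or GFP IL-1β group (0.0593 and 0.0597), and that of Dkk3 without GFP replicate 1 (0.0973), GFP replicate 2 (0.0957) or Cre replicate 2 (0.174). Wif1 was at 6.33 and 8.37 CPM with GFP and at 9.25 and 10.9 CPM with Cre (0.47 ± 0.19, adjusted p = 0.146, or 0.0324 with the block).

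In Nfkbiz f/f no member was called without IL-1β, and neither were many other genes (0.26% of 15356). By edgeR 1 member had an unadjusted p under 0.05, and DESeq2 and voomWithQualityWeights called 0. Frzb was at 78.5 and 80.5 CPM with GFP and at 96.4 and 94.1 CPM with Cre (0.26, 95% interval 0.08 to 0.43, adjusted p = 0.527). The Cre effect on Frzb differed between this line and the others, by -0.61 ± 0.11 for Ldha f/f minus Nfkbiz f/f (adjusted p = 0.00378; 1.9% of 16727 genes called) and -0.92 ± 0.11 for Nampt f/f minus Nfkbiz f/f (adjusted p = 1.51e-05; 5.04% called). For Ldha f/f minus Nampt f/f no member was called, with 1 at an unadjusted p under 0.05 and 0 by DESeq2, and 0.0897% of genes were.

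Cre was then compared with GFP in the presence of IL-1β. In Ldha f/f 5 of the 6 members were called, 4 lower and 1 higher, against 34% of all genes, 17% lower and 16.9% higher. Sfrp2 went from 27.9 and 25.6 CPM with GFP to 10.3 and 9.13 CPM with Cre (-1.42 ± 0.13, adjusted p = 2.15e-05). Frzb went from 15.4 and 14.0 CPM to 5.54 and 6.61 CPM (-1.25 ± 0.12, adjusted p = 3.29e-05). Dkk3 went from 17.8 and 19.4 CPM to 9.03 and 6.07 CPM (-1.25 ± 0.16, adjusted p = 0.00028). These 3 falls passed in each of the 15 alternative fits run for this comparison. Wif1 went from 4.21 and 4.90 CPM to 2.79 and 2.53 CPM (-0.74 ± 0.24, adjusted p = 0.0408), a call lost with voomWithQualityWeights (adjusted p = 0.0865) and without either library of the GFP IL-1β (adjusted p = 0.0606 and 0.164), Cre (0.0517 and 0.0519) or Cre IL-1β group (0.121 and 0.142). Sfrp1 rose from 14.7 and 13.1 CPM to 18.4 and 17.3 CPM (0.40 ± 0.11, adjusted p = 0.0203), a call lost without either library of the GFP IL-1β (adjusted p = 0.0572 and 0.104) or Cre IL-1β group (0.106 and 0.0675). Sfrp5, already at 11 and 0 counts with GFP, was at 11 and 1 counts with Cre (0.40 ± 0.98, adjusted p = 0.797), too few to show a further fall at this depth.

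Nampt f/f gave a like list, with 4 of 6 called, 3 lower and 1 higher, against 48.4% of all genes, 23.4% lower and 25% higher. Frzb went from 12.0 and 11.3 CPM to 3.98 and 4.08 CPM (-1.53 ± 0.11, adjusted p = 1.07e-06), the lowest Frzb values of the floxed libraries. Sfrp2 went from 14.9 and 14.3 CPM to 5.16 and 5.02 CPM (-1.52 ± 0.13, adjusted p = 3.2e-06). Dkk3 went from 15.5 and 13.4 CPM to 6.80 and 6.32 CPM (-1.14 ± 0.12, adjusted p = 1.97e-05). Sfrp1 again rose, from 12.4 and 13.0 CPM to 16.6 and 17.0 CPM (0.41 ± 0.11, adjusted p = 0.0105), a call lost without GFP IL-1β replicate 1 (adjusted p = 0.103) or Cre IL-1β replicate 2 (0.0516). Wif1 was at 4.23 and 3.31 CPM with GFP and at 2.63 and 2.90 CPM with Cre (-0.46 ± 0.22, adjusted p = 0.109), and Sfrp5 was at 7 and 6 counts and at 15 and 2 counts (-0.24 ± 0.72, adjusted p = 0.808).

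In Nfkbiz f/f with IL-1β, 1 member was called, against 17.4% of all genes, 8.16% higher and 9.2% lower. This was Sfrp5, which rose from 0.496 and 0.260 CPM (10 and 6 counts) to 0.720 and 1.33 CPM (17 and 31 counts), a log2 fold change of 1.44 ± 0.44 (adjusted p = 0.0381). The values did not overlap but the call was lost with voomWithQualityWeights (adjusted p = 0.127), with the replicate number as a block (0.0562), with the 4 libraries alone (0.177) and without either GFP (0.0566 and 0.054) or GFP IL-1β library (0.0589 and 0.268) or Cre IL-1β replicate 2 (0.259). Frzb was at 39.4 and 38.7 CPM with GFP and at 41.6 and 39.9 CPM with Cre (0.05 ± 0.09, 95% interval -0.13 to 0.23, adjusted p = 0.765). Sfrp2 (3.57 and 5.45 CPM; 4.91 and 5.03 CPM with Cre) and Dkk3 (4.41 and 3.68 CPM; 4.11 and 4.39 CPM with Cre) overlapped between the viruses, at adjusted p = 0.8 and 0.875.

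The differences between lines in this Cre effect, a comparison added after seeing the data, passed for the same 3 members against Nfkbiz f/f. For Ldha f/f minus Nfkbiz f/f they were -1.58 ± 0.24 for Sfrp2 (adjusted p = 2.67e-05), -1.35 ± 0.23 for Dkk3 (adjusted p = 8.67e-05) and -1.34 ± 0.13 for Frzb (adjusted p = 4.94e-08), with 27% of all genes called. For Nampt f/f minus Nfkbiz f/f they were -1.69 ± 0.25 for Sfrp2 (adjusted p = 1.23e-05), -1.63 ± 0.14 for Frzb (adjusted p = 3.39e-09) and -1.25 ± 0.23 for Dkk3 (adjusted p = 0.000156), with 36.3% of all genes called. For Ldha f/f minus Nampt f/f no member was called (0 at an unadjusted p under 0.05, 0 by DESeq2) and 0.538% of genes were, and the 95% interval of the difference was -0.02 to 0.59 for Frzb and -0.33 to 0.54 for Sfrp2. All Nfkbiz f/f libraries are in set 2, and the Nfkbiz f/f line started with the lowest Sfrp2 and Dkk3.

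**Figure D3:**
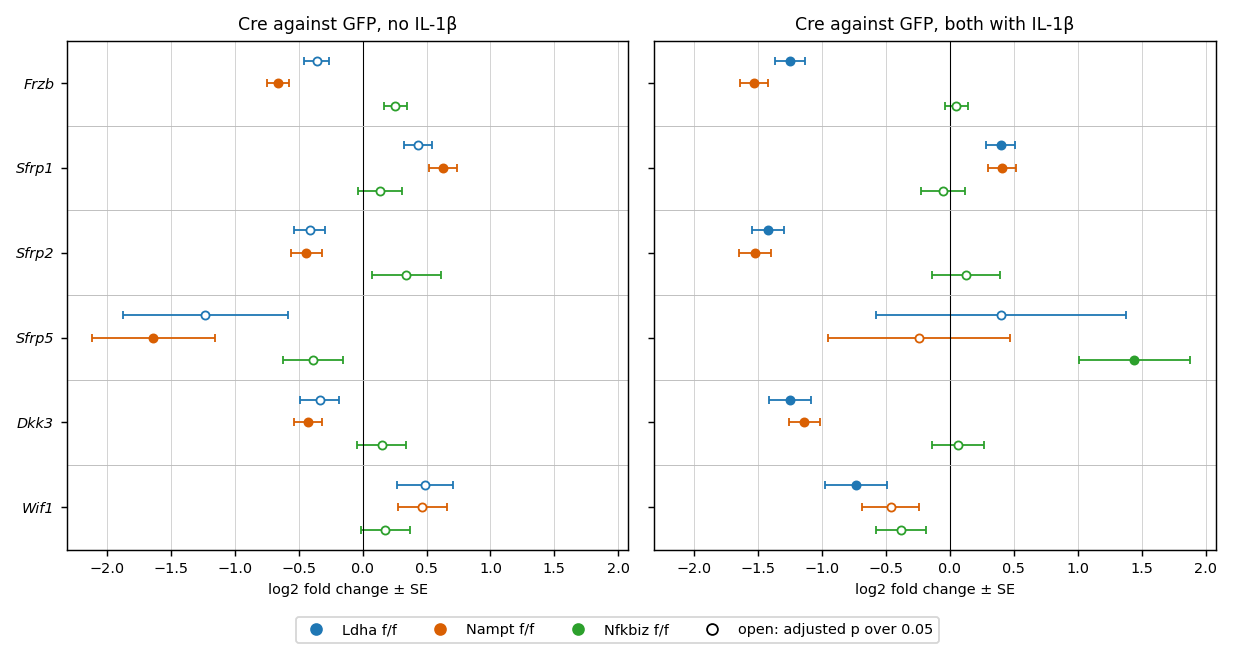
Log2 fold change of Cre against GFP, with its SE, for each of the 6 members tested and each floxed line, without IL-1β (left) and with IL-1β (right); open symbols have an adjusted p over 0.05. With IL-1β, Frzb, Sfrp2 and Dkk3 lie between -1.1 and -1.6 in Ldha f/f and Nampt f/f and between 0.05 and 0.13 in Nfkbiz f/f, and Sfrp1 is the one member above 0 in both of the former lines.

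Whether Cre changed the IL-1β response was tested as an interaction. In Ldha f/f it passed for Frzb (-0.89 ± 0.16, adjusted p = 0.00525), Sfrp2 (-1.01 ± 0.17, adjusted p = 0.00507), Dkk3 (-0.91 ± 0.22, adjusted p = 0.0272) and Wif1 (-1.23 ± 0.33, adjusted p = 0.0391), with 11.5% of all genes called, 5.6% lower and 5.89% higher. In Nampt f/f it passed for Frzb (-0.87 ± 0.14, adjusted p = 0.00149), Sfrp2 (-1.08 ± 0.17, adjusted p = 0.00131), Dkk3 (-0.71 ± 0.16, adjusted p = 0.0101) and Wif1 (-0.93 ± 0.29, adjusted p = 0.0448), with 22% called and 9.98% called lower. The fitted change with IL-1β was thus lower after Cre than after GFP for each of these 4 genes. For Sfrp2 the mean after GFP was 23.6 CPM without IL-1β and 26.7 CPM with it in Ldha f/f, and 14.1 and 14.6 CPM in Nampt f/f. Wif1 in Ldha f/f, for example, went from 9.17 and 10.7 CPM without IL-1β to 2.79 and 2.53 CPM with it after Cre, but from 5.62 and 8.46 CPM to 4.21 and 4.90 CPM after GFP. The Wif1 call in Ldha f/f held without GFP replicate 2 and was lost without each of the other 7 libraries (adjusted p = 0.0585 to 0.121). That in Nampt f/f held without replicate 2 of GFP or of GFP IL-1β and was lost without each of the other 6 libraries (0.0589 to 0.153) and with DESeq2 (0.0513). The Dkk3 call in Ldha f/f was lost without GFP replicate 1 (0.0757), GFP IL-1β replicate 2 (0.0803), either Cre library (0.0722 and 0.0705) or Cre IL-1β replicate 2 (0.0593). In Nfkbiz f/f no member was called (5.19% of genes were, 1.69% higher and 3.5% lower; 1 member had an unadjusted p under 0.05), and Sfrp5 had 1.83 ± 0.50 (adjusted p = 0.0534), which passed with DESeq2 (0.0213), with no filter (0.0046) and without Cre IL-1β replicate 1 (0.0108).

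On average over the 24 libraries of the 3 lines Cre lowered Frzb (-0.50 ± 0.18, adjusted p = 0.0296), Sfrp2 (-0.57 ± 0.17, adjusted p = 0.0125) and Dkk3 (-0.50 ± 0.14, adjusted p = 0.00622) and raised Sfrp1 (0.34 ± 0.07, adjusted p = 0.000636), 4 of 6 members against 38.8% of all genes. The fit takes a single Cre effect for all lines. With IL-1β, however, the Cre effects on Frzb, Sfrp2 and Dkk3 differed between Nfkbiz f/f and the other lines. Sfrp5 (-0.50 ± 0.30, adjusted p = 0.203) and Wif1 (-0.02 ± 0.16, adjusted p = 0.926) did not pass, although with voomWithQualityWeights Sfrp5 was at -0.95 and passed (adjusted p = 0.00998). None of the 4 calls held in set 2 alone (adjusted p = 0.341 for Frzb, 0.298 for Sfrp2, 0.146 for Dkk3 and 0.0592 for Sfrp1), without Ldha f/f (0.254, 0.269, 0.157 and 0.0519) or without Nampt f/f (0.439, 0.269, 0.192 and 0.0745).

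Marker genes moved with these results. In Ldha f/f the chondrocyte marker sum was 58110 and 59280 CPM with Cre and 15380 and 17110 CPM with Cre and IL-1β, and in Nampt f/f it was 54720 and 56280 CPM and 16630 and 17570 CPM. The fibroblast and perichondrium sum went from between 5550 and 5581 CPM to between 3128 and 3299 CPM with Cre under IL-1β in Ldha f/f, with 9 of 12 markers lower, and from between 4849 and 4911 CPM to between 2723 and 2784 CPM in Nampt f/f, also with 9 of 12 lower. In Nfkbiz f/f 2 of 11 fell and the chondrocyte sum was 34280 to 36530 CPM with GFP and 39880 to 43250 CPM with Cre. Over 32 libraries the log2 CPM of Sfrp2 had a Pearson correlation of 0.89 with the fibroblast and perichondrium sum and Dkk3 of 0.84. Under IL-1β the endothelial sum in Ldha f/f rose from 5.42 and 6.20 CPM with GFP to 21.4 and 16.7 CPM with Cre. The rise was carried by Kdr (log2 fold change 3.27 in Ldha f/f and 3.45 in Nampt f/f with IL-1β), a gene chosen after its values were seen. Of 6 hypertrophic chondrocyte markers Spp1 reached the highest level, at 188 to 3197 CPM over the 32 libraries. Col10a1 ran from 23.5 to 660 CPM and the others reached at most 111 CPM. Their sum thus leans on Spp1, and changes of single markers are not given here. With Cre under IL-1β this sum went from 1278 and 1323 CPM to 639.5 and 673 CPM in Ldha f/f, from 1337 and 1439 CPM to 702 and 763 CPM in Nampt f/f and from 1700 and 1885 CPM to 524 and 553 CPM in Nfkbiz f/f. The sum of 7 IL-1β response genes, Nfkbiz itself included, went from 6689 and 6794 CPM to 2650 and 2745 CPM, from 5337 and 5455 CPM to 2257 and 2331 CPM and from 13660 and 13940 CPM to 748 and 910 CPM in the same lines. Osteoblast, macrophage and skeletal muscle sums were lower with Cre under IL-1β in both libraries of Ldha f/f and of Nampt f/f, and in Nfkbiz f/f the first 2 were higher and the muscle sums overlapped. The part of all these markers in the results for the antagonists was not tested.

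**Figure D4:**
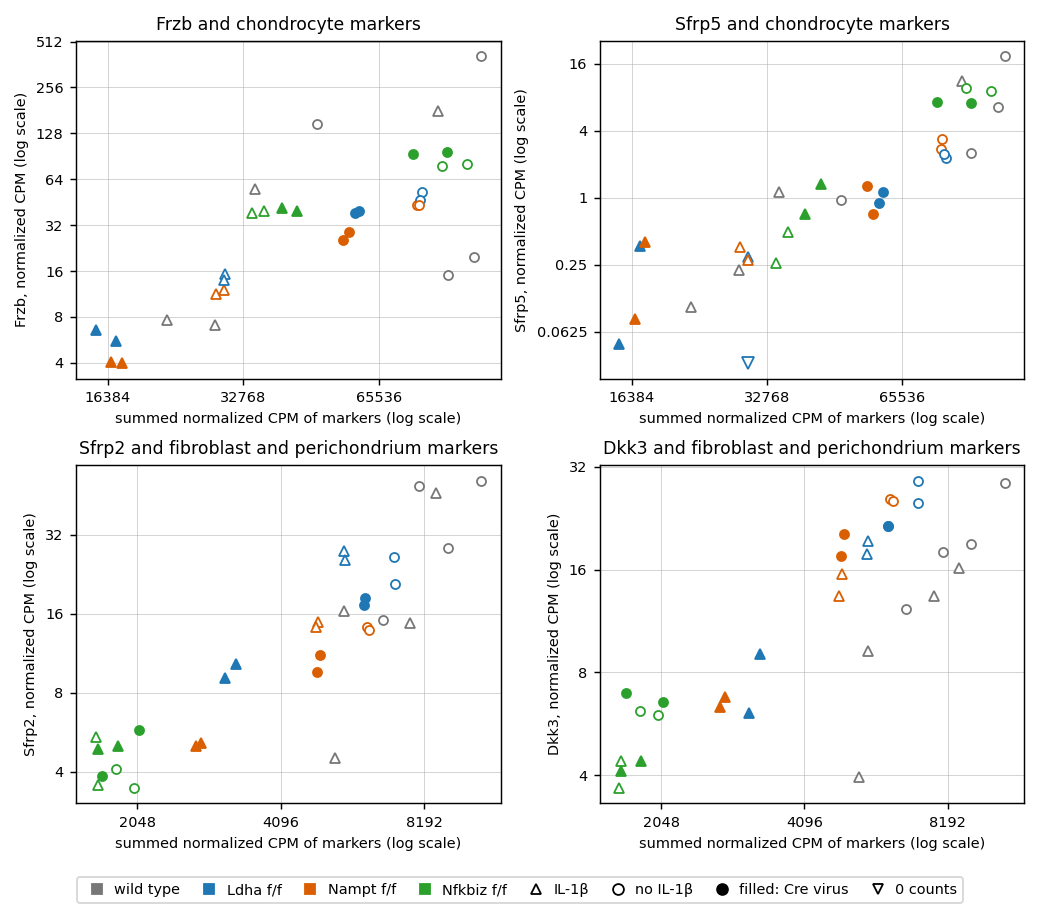
Normalized CPM of Frzb and Sfrp5 against the summed CPM of 16 chondrocyte markers, and of Sfrp2 and Dkk3 against that of 12 fibroblast and perichondrium markers, in 32 libraries (log axes); filled symbols are Cre and triangles carry the IL-1β label. The points tend to rise together in each panel, with Pearson correlations of 0.78, 0.88, 0.89 and 0.84 on the log2 scale. Wild-type untreated libraries depart from this for Frzb, at 19.7 and 411 CPM with marker sums of 106700 and 110900 CPM.

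Summed over the 8 members and per length, the antagonists came to a mean of 38.9 CPM per kb in the floxed GFP libraries without IL-1β (35.0 to 43.8), 22.7 with IL-1β (18.8 to 28.4), 36.3 with Cre (27.9 to 44.4) and 15.4 with Cre and IL-1β (10.7 to 21.6). Nampt f/f with Cre and IL-1β had the lowest sums, 10.7 and 10.8 CPM per kb. The make-up of the sum shifted as Frzb fell, with Frzb at 15.9% to 18.6% of it in the Ldha f/f and Nampt f/f libraries with GFP and IL-1β and 11.3% to 15.5% with Cre and IL-1β. Sfrp2 then held the largest share in Ldha f/f with GFP and IL-1β, 44.0% and 45.6%, and Sfrp1 in Nampt f/f with Cre and IL-1β, 35.1% and 36.3%.

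**Figure D5:**
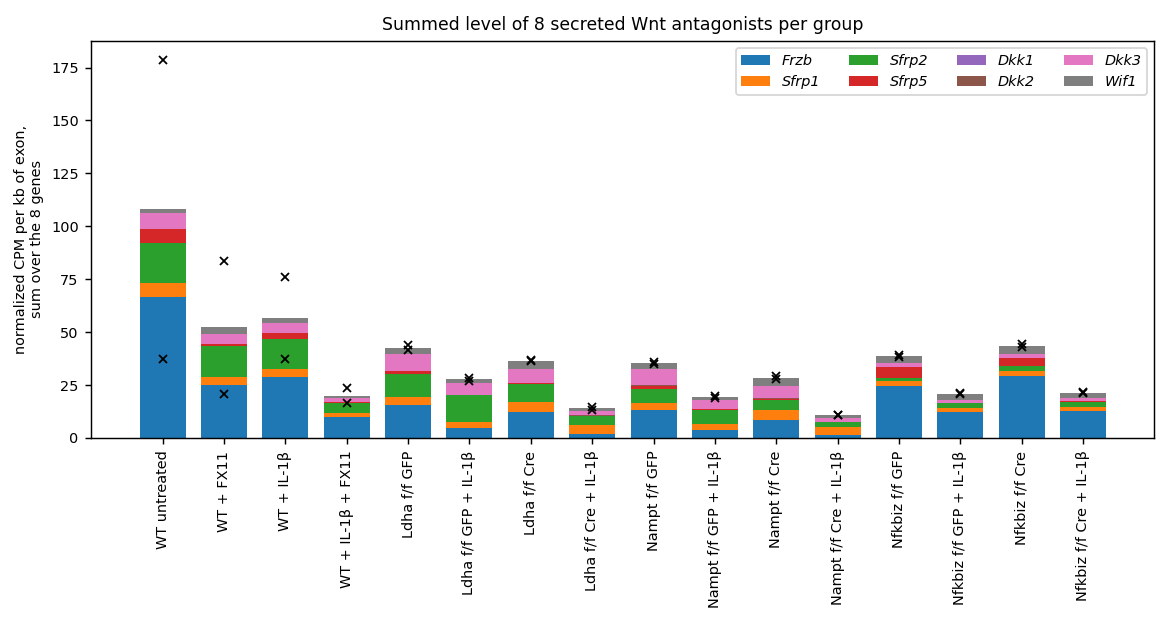
Mean CPM per kb of each member, stacked by group, with crosses for the sum in each library. The sum lies between 35.0 and 43.8 in the floxed GFP libraries without IL-1β and falls to 10.7 to 14.9 with Cre and IL-1β in Ldha f/f and Nampt f/f, and the wild-type untreated libraries lie apart at 37.2 and 178.8.

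In wild type no member and no gene of 15461 passed in any of the 4 comparisons by edgeR's test (0% called; an unadjusted p under 0.05 was found for 153 genes with IL-1β, 68 with FX11, 861 with both agents against untreated and 102 with both against IL-1β, and DESeq2 called 6, 2, 153 and 1). Of the members 0, 0, 2 and 1 had an unadjusted p under 0.05. Frzb was at 19.7 CPM in set 1 and 411 CPM in set 2 when untreated, at 7.03 and 180 CPM in the libraries labelled IL-1β, at 15.1 and 148 CPM with FX11 and at 7.61 and 55.1 CPM with both. In each of the 4 groups the set 2 library was above that of set 1, and the ranges of all 4 groups overlapped. Within each set the untreated library had the highest Frzb and Sfrp5 of its 4. Sfrp5 was at 6.56 and 18.8 CPM untreated, 0.225 and 11.3 CPM in the libraries labelled IL-1β, 2.50 and 0.959 CPM with FX11 and 0.103 and 1.12 CPM with both. In set 2, Sfrp5 was high in the library labelled IL-1β, where Mmp3 was low, and low in that labelled FX11, where Mmp3 was high. Frzb did not divide these libraries in this way, at 180 and 148 CPM. In set 1, Sfrp5 was also lower with FX11 (2.50 CPM) than untreated (6.56 CPM).

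With both agents all 6 members tested had lower fitted levels than untreated, at log2 fold changes of -4.44 for Sfrp5, -2.79 for Frzb, -1.94 for Sfrp2, -1.86 for Sfrp1, -1.85 for Dkk3 and -0.77 for Wif1, none of which passed (adjusted p between 0.873 and 1 over all members and wild-type comparisons). Without the set 2 library labelled IL-1β they were -4.43, -2.79, -1.93, -1.86, -1.85 and -0.77 (adjusted p = 0.512 to 0.889), and without that labelled FX11 -4.44, -2.79, -1.94, -1.86, -1.85 and -0.77 (0.769 to 0.995). DESeq2 called 2 of them, Sfrp1 (-1.88, adjusted p = 0.0141) and Dkk3 (-1.87, adjusted p = 0.0288). Sfrp1 went from 28.6 and 31.8 CPM in untreated cells to 10.3 and 6.33 CPM with both, and Dkk3 was at 19.0 and 28.8 CPM and at 9.26 and 3.95 CPM, in each case without overlap. Sfrp2 went from 28.6 and 51.6 CPM in untreated cells to 16.4 and 4.53 CPM with both, and Wif1 was at 4.57 and 4.65 CPM and at 2.71 and 2.69 CPM. For both agents against IL-1β the fits gave -3.29 for Sfrp5, -1.58 for Frzb, -1.53 for Sfrp2, -1.18 for Wif1, -1.16 for Dkk3 and -0.90 for Sfrp1. Without the set 2 library labelled IL-1β they were 1.38, 2.17, -2.12, -1.89, -1.28 and -1.23, so that Sfrp5 and Frzb changed sign.

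For IL-1β alone the fits gave -1.21 for Frzb, -1.14 for Sfrp5, -0.96 for Sfrp1, -0.70 for Dkk3, -0.40 for Sfrp2 and 0.41 for Wif1. Without the set 2 library labelled IL-1β they were -4.96 for Frzb, -5.81 for Sfrp5, -0.63 for Sfrp1, -0.58 for Dkk3, 0.19 for Sfrp2 and 1.12 for Wif1, again with none called. For FX11 alone they were -2.86 for Sfrp5, -1.39 for Frzb, -0.97 for Sfrp1, -0.65 for Dkk3, -0.30 for Sfrp2 and 0.77 for Wif1, and without the set 2 library labelled FX11 -2.35, -3.85, -1.44, -0.97, -1.41 and -0.25. With 1 library left on one side these values carry the difference between the sets and are not estimates of a treatment effect.

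The other genes of the pathway were read from 6 lists chosen for their roles, and with IL-1β in the GFP controls their counts stand beside 28% of all genes called higher and 28.3% lower. With IL-1β in the GFP controls, 2 of 5 other extracellular inhibitors tested rose and none fell, the Wnt inhibitors Apcdd1 (0.76 ± 0.15) and Tpbg (0.47 ± 0.07), while Notum, which strips the lipid from Wnts, was at -0.24 (adjusted p = 0.337). Among 9 Wnt ligands tested 2 rose, Wnt10a (0.90 ± 0.18) and Wnt5b (0.75 ± 0.15), and 3 fell, among them Wnt11 (-0.89 ± 0.10). Of 19 receptors and co-receptors 6 rose and 10 fell, the 3 leading ones being Lrp4 (-1.63 ± 0.06), Fzd9 (-1.62 ± 0.09) and Fzd2 (-1.31 ± 0.05). R-spondins, which strengthen Wnt signals, rose, with Rspo2 at 0.88 ± 0.13 and Rspo3 at 0.45 ± 0.06, while their receptor Lgr4 fell (-0.96 ± 0.06), and 3 of 5 of that list rose and 1 fell. Of 23 intracellular genes 4 rose and 9 fell, with Tcf7l1 (-0.74 ± 0.09), Tcf7l2 (-0.62 ± 0.06) and Bcl9 (-0.35 ± 0.05) leading. Of 14 target genes 5 rose and 6 fell, with Fosl1 (1.96 ± 0.08) and Cd44 (1.37 ± 0.06) the leading rises and Nkd1 (-2.0 ± 0.07) the leading fall. The 3 genes named from each list are those with the smallest adjusted p in this comparison.

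With Cre under IL-1β 34% of all genes were called in Ldha f/f, 48.4% in Nampt f/f and 17.4% in Nfkbiz f/f, the shares beside which the counts of each list are to be read. Frzb, Sfrp2 and Dkk3 fell in the first 2 lines and were not called in Nfkbiz f/f. Of 15 target genes 6 rose and 5 fell in Ldha f/f, 6 rose and 6 fell in Nampt f/f, and 5 rose and none fell in Nfkbiz f/f. Nkd1, an intracellular feedback inhibitor, rose in all 3 lines (1.34 ± 0.12, 1.75 ± 0.13 and 1.43 ± 0.15, Ldha f/f first and Nfkbiz f/f last). Axin2, a feedback inhibitor and widely used readout of β-catenin signalling that was chosen after its values were seen, was at a mean of 4.68 CPM with GFP and 50.1 CPM with Cre in Ldha f/f, 4.00 and 43.9 CPM in Nampt f/f, and 3.77 and 10.4 CPM in Nfkbiz f/f. Its log2 fold changes were 3.45 ± 0.10, 3.45 ± 0.13 and 1.44 ± 0.23, and all passed. Without IL-1β it also rose in Ldha f/f (1.88 ± 0.09) and Nampt f/f (2.50 ± 0.12), and in Nfkbiz f/f it had 0.53 ± 0.24 (adjusted p = 0.824). The target genes that fell are not named here, and a link between these changes and those of the antagonists was not tested.

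Among the Wnt ligands 7 rose and 1 fell of 12 in Ldha f/f with Cre and IL-1β (all genes 16.9% higher, 17% lower), 7 rose and 2 fell of 12 in Nampt f/f (25% and 23.4%), and 2 rose of 9 in Nfkbiz f/f (8.16% and 9.2%). Wnt7a, likewise chosen after its values were seen, was at 0.0878 and 0.0814 CPM in Ldha f/f with GFP, at 5.05 and 5.10 CPM with Cre and at 40.0 and 37.0 CPM with Cre and IL-1β. In Nampt f/f it reached 55.5 and 57.2 CPM with Cre and IL-1β, and in Nfkbiz f/f 0.889 and 0.645 CPM, which kept it under the filter there. Wnt11 rose in Ldha f/f (1.57 ± 0.14) and Nampt f/f (1.64 ± 0.13), and in Nfkbiz f/f it had 0.38 ± 0.18 (adjusted p = 0.196).

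Among other extracellular inhibitors Notum and Sfrp4 went opposite ways. With Cre and IL-1β 4 of 6 rose and 1 fell in Ldha f/f and in Nampt f/f, and none rose and 2 fell in Nfkbiz f/f. Notum rose by 2.25 ± 0.24 in Ldha f/f and 2.58 ± 0.31 in Nampt f/f, and in Nfkbiz f/f it had -0.23 ± 0.54 (adjusted p = 0.818). The gene that fell in the former lines was Sfrp4, a further secreted frizzled-related protein (-1.56 ± 0.37 and -2.15 ± 0.39), named after its values were seen. Counts for the list of R-spondins and their receptors are not given here for this comparison. Rspo3 fell in all 3 lines, at -2.24 ± 0.16 in Ldha f/f, -2.68 ± 0.18 in Nampt f/f and -0.74 ± 0.11 in Nfkbiz f/f, all past the test. Rspo2 fell by 2.04 ± 0.26 and 2.94 ± 0.28 on the log2 scale in the former lines and rose by 1.19 ± 0.27 in Nfkbiz f/f. Of receptors 5 rose and 6 fell of 19 in Ldha f/f and in Nampt f/f, and 7 rose and 3 fell in Nfkbiz f/f, and of 23 intracellular genes 8 rose and 2 fell, 13 rose and 4 fell, and 1 rose and 1 fell. Over all genes the shares called higher and lower were 16.9% and 17% in Ldha f/f, 25% and 23.4% in Nampt f/f, and 8.16% and 9.2% in Nfkbiz f/f.

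The members did not all vary together. Over 32 libraries the Pearson correlation of log2 CPM was 0.83 between Sfrp2 and Dkk3, 0.77 between Frzb and Sfrp5, 0.69 between Sfrp1 and Dkk3, 0.65 between Sfrp1 and Sfrp2 and 0.43 between Frzb and Wif1, over points that share sets, lines and treatments. Among 10872 genes with a mean over 5 CPM, those most like Frzb were Pam (0.946), Ldlrad3 (0.939) and Ccdc28b (0.939), and those most like Sfrp5 included Snx22 (0.923) and the cartilage collagen gene Col9a3 (0.914). Sfrp2 was most like Igsf10 (0.929), the fibrillar collagen gene Col3a1 (0.886) and Cdh11 (0.885). Dkk3 was most like Ptn (0.955), Olfml3 (0.887) and Clec11a (0.875). Sfrp1 had Pdia6 (0.858), Pdia3 (0.821) and Cd248 (0.814), and Wif1 had the weakest companions, Lxn (0.760), Ids (0.757) and Vldlr (0.756).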

How the data were processed

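RNA of cultured chondrocytes was depleted of ribosomal RNA and sequenced in 32 libraries. Per the labels and the paper's methods, the authors used STAR on GRCm38 (Ensembl release 76) and featureCounts, keeping reads that hit 1 place and 1 gene. The submitters' processing notes give STAR 2.0.4b and featureCounts 1.45, and the paper's methods give other versions. The deposited counts are raw. The deposited CPM are counts scaled to the library total, and the deposited RPKM further divide by gene length. Neither CPM nor RPKM entered a test, and how counting used the strand is not given in the sources used here.

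Samples were grouped by their labels. The 8 genes, the pathway and marker lists and the tests were chosen with earlier results of these data known. Symbols came from GENCODE M21, which names 40340 of 41388 identifiers. Counts were analysed in R 4.3.3 with edgeR 4.0.16 (quasi-likelihood test, TMM factors, two-sided, Benjamini-Hochberg over all genes, with calls at 0.05 or under), after leaving out 355 ribosomal RNA genes and keeping genes over 1 CPM in at least 1 library (fits of a line), 5 libraries (6 against 6) or 11 libraries (12 against 12). Fits of a line used its 8 libraries in 4 groups, and fits across lines added line and library set. The count test was tried on simulated counts. Named genes are the 8 members, the 3 deleted genes, the 3 genes of each pathway list with the smallest adjusted p-value for IL-1β in GFP controls, and the 3 genes most correlated with each member, of which 1 is not reported here. Others are said to be chosen after their values were seen. Alternatives were DESeq2 1.42.0, limma 3.58.1 (voomWithQualityWeights), RLE factors, other filters, a replicate block, other choices of libraries and each library left out. Intervals are the estimate and its SE under a normal approximation, and tables and figures used Python 3.11.15, pandas 2.3.3, numpy 2.4.6 and matplotlib 3.10.9. Totals ran from 15830658 to 39959888 counts, and low counts limit Sfrp5 with IL-1β and Dkk1 and Dkk2 throughout. Deviations of libraries with the same number correlated over 10872 genes at 0.40 to 0.63 in Ldha f/f, 0.43 to 0.56 in Nampt f/f, -0.24 to 0.72 in wild type and -0.25 to 0.09 in Nfkbiz f/f, whose numbers are in accession order.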

Additional observations from a re-analysis of the deposited data

Results flagged for a closer look

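No member was set apart by a library far from its fellows in the 24 arms of 6 floxed libraries tested for this (6 members in 4 arms). The results singled out are 18 differences of an effect between viruses or lines, each passing a test of the difference itself, and none was weighed against an explanation.

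The IL-1β response differed after Cre from that after GFP. On the log2 scale the difference was -0.892 for Frzb, -1.009 for Sfrp2, -0.913 for Dkk3 and -1.226 for Wif1 in Ldha f/f, and -0.869 for Frzb, -1.083 for Sfrp2, -0.71 for Dkk3 and -0.931 for Wif1 in Nampt f/f. The Wif1 calls in both lines and the Dkk3 call in Ldha f/f were lost in several of the alternative fits, as given above.

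Between lines, Frzb differed in the IL-1β response of GFP controls, by -0.742 for Ldha f/f minus Nfkbiz f/f and -0.834 for Nampt f/f minus Nfkbiz f/f. Its Cre effect without IL-1β differed by -0.609 and -0.916 for the same pairs. With IL-1β the Cre effect differed for Ldha f/f minus Nfkbiz f/f by -1.345 for Frzb, -1.58 for Sfrp2 and -1.351 for Dkk3. For Nampt f/f minus Nfkbiz f/f it differed by -1.63 for Frzb, -1.69 for Sfrp2 and -1.253 for Dkk3. The comparison of Cre effects with IL-1β was added after seeing the data, and the Nfkbiz f/f line lies in set 2 alone.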

How the results depend on the processing

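Of 1946 values recomputed for the 6 tested members under the alternatives, 689 belonged to called results, of which 604 stayed called in the same direction, 85 lost the call and none reversed. Of the 1257 that belonged to results not called, 1198 stayed so, 27 became called and 32 changed sign. The RLE scaling, the other tools, the filters and the block moved the median of all genes by at most 0.068 on the log2 scale. For the pathway genes all 3756 recomputed calls kept their direction and 3622 stayed called. A fit without a library leaves a group with 1 library, which is assumed to vary like the other groups. The causes of the changes below were not tested.

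The number of members called moved by more than 1.5 times, or from or to 0, as follows. With DESeq2 they numbered 2 for both agents against untreated in wild type (0 in edgeR), 1 for the interaction in Nfkbiz f/f (0) and 2 for the Cre effect without IL-1β in Nampt f/f minus Nfkbiz f/f (1). With voomWithQualityWeights they numbered 1 for Cre without IL-1β in Ldha f/f (0), 0 for Cre with IL-1β in Nfkbiz f/f (1) and 2 for that line difference. With no filter they numbered 2, 1, 2 and 2 for Cre without IL-1β in Ldha f/f, the interaction in Nfkbiz f/f, and the IL-1β response and Cre effect without IL-1β in Nampt f/f minus Nfkbiz f/f, and with filterByExpr 1 for Cre without IL-1β in Ldha f/f. With the replicate block they numbered 3 for Cre without IL-1β in Ldha f/f and 0 for Cre with IL-1β in Nfkbiz f/f, and with the 4 libraries alone 0 for the latter. For Cre in 3 lines they numbered 4, but 0 in set 2 alone and 0 to 4 without a line. By tool, smaller changes were 5 with voomWithQualityWeights for Cre in 3 lines (4) and for IL-1β in GFP controls of 3 lines (4), 3 for IL-1β in Nfkbiz f/f (2) and 4 for Cre with IL-1β in Ldha f/f (5), and with DESeq2 3 for the interaction (4) and 4 for Cre without IL-1β (5) in Nampt f/f. Leaving out each library gave 0 to 1 for Cre without IL-1β and 3 to 5 with IL-1β in Ldha f/f and 2 to 4 for its interaction, 2 to 5 for Cre without IL-1β in Nampt f/f, and 0 to 1 for Cre with IL-1β and for the interaction in Nfkbiz f/f.

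Signs turned only for values that were not called. Wif1 for Cre in 3 lines was 0.26 with voomWithQualityWeights and 0.034 in set 1 alone, an alternative chosen after seeing the data, and Sfrp2 for the Cre effect without IL-1β in Ldha f/f minus Nampt f/f was -0.001 with voomWithQualityWeights. Without single libraries the log2 ranges in wild type were -4.957 to 2.26 (Frzb), -1.443 to 0.19 (Sfrp2) and -1.101 to 1.12 (Wif1) for IL-1β; -3.853 to 2.076 (Frzb), -1.412 to 0.318 (Sfrp2) and -0.254 to 1.362 (Wif1) for FX11; -4.834 to 0.685 (Frzb) for both against untreated; and -3.622 to 2.17 (Frzb), -5.755 to 1.375 (Sfrp5) and -1.889 to 0.328 (Wif1) for both against IL-1β. In Ldha f/f Sfrp5 ran from -1.716 to 5.636 for Cre with IL-1β and from -0.499 to 6.848 for the interaction, and Sfrp1 from -0.153 to 0.07 for the latter. In Nampt f/f Sfrp5 ran from -1.892 to 0.354 and from -0.269 to 1.989. In Nfkbiz f/f the ranges were -0.134 to 0.197 (Sfrp1), -0.065 to 0.537 (Sfrp2) and -0.204 to 0.118 (Wif1) for IL-1β, -0.019 to 0.267 (Sfrp1) for Cre without IL-1β, -0.212 to 0.12 (Sfrp1), -0.14 to 0.461 (Sfrp2) and -0.071 to 0.2 (Dkk3) for Cre with IL-1β, and -0.483 to 0.118 (Sfrp2) and -0.221 to 0.051 (Dkk3) for the interaction.

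Counts over all genes moved by more than 1.5 times in places. Over the alternatives, Cre in 3 lines called 1701 to 7373 genes, IL-1β after Cre 3296 to 9338, Cre without IL-1β 289 to 1995 in Ldha f/f, 1332 to 4311 in Nampt f/f and 21 to 170 in Nfkbiz f/f, the interaction 1081 to 3374, 2575 to 5648 and 344 to 1892, and in Nfkbiz f/f Cre with IL-1β 1290 to 3733 and IL-1β 2487 to 5686. In Ldha f/f minus Nampt f/f the Cre effect called 64 to 636 with IL-1β and 12 to 59 without, and the IL-1β response 15 to 62, and the Cre effect without IL-1β in Ldha f/f minus Nfkbiz f/f called 275 to 511. With the replicate block the calls went from 877 to 1995 for Cre without IL-1β and 1826 to 3374 for the interaction in Ldha f/f, from 2319 to 4311 and 3552 to 5648 in Nampt f/f, and from 18 to 31 for the IL-1β response of Ldha f/f minus Nampt f/f. The labels tie same-numbered libraries by set alone. Depth limits Sfrp5 with IL-1β, at 0 to 31 counts in the floxed libraries, and Dkk1 and Dkk2 throughout.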

Other observations

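Dkk2 and Dkk1, the antagonists that bind LRP co-receptors, stayed under the filter. In fits with no filter on low counts Dkk2 was lower with IL-1β in GFP controls of the 3 lines (log2 fold change -2.56 ± 0.66, adjusted p = 0.000567). Its lowest, median and highest values were 0.0839, 0.60 and 0.732 CPM without IL-1β and 0, 0.0395 and 0.278 CPM with it, on at most 24 counts in a library. Within Nampt f/f it was also lower (-3.60 ± 1.08, adjusted p = 0.00607), and the interaction with Cre passed there (4.28 ± 1.39, adjusted p = 0.0196). Both rest on few reads, with 0 and 0.0791 CPM after GFP and IL-1β beside a floor of 0.0751 to 0.190 CPM. Dkk2 was not called with IL-1β in Ldha f/f (-1.82 ± 0.79, adjusted p = 0.11) or Nfkbiz f/f (-4.05 ± 3.25, adjusted p = 0.556). After Cre the pooled change was -0.16 ± 0.68 (adjusted p = 0.909). The share of all genes called in these fits is not given here. No comparison called Dkk1 in these fits.

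Every one of the 32 Dkk2 counts was an even number, 0 included. Of 20161 genes with at least 100 counts in all, 26 had an even count in every library, 3 of them protein-coding and 15 processed pseudogenes. The other 7 members had even counts in 12 to 24 libraries. Fitted errors for Dkk2 take each count as independent.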
